A study of Mus musculus with 4 samples.

Results

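Cytosolic ribosomal protein genes were examined as a housekeeping group in chromatin accessibility profiles of mouse cervical motor neurons. Members were the protein-coding genes named Rpl or Rps with a number, with or without a closing a or x, plus Rplp0, Rplp1, Rplp2 and Rpsa. This gave 76 of 21887 protein-coding genes: 43 of the large ribosomal subunit, 30 of the small subunit and 3 of the stalk. Open intervals of the 4 libraries were merged where they shared at least 1 bp, which gave 199576 union regions. Of these, 95 lay within 1 kb of either end of a member gene, among 19280 at the end of any protein-coding gene.

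Open chromatin was read out with ATAC-seq, a method that uses the Tn5 transposase to insert sequencing adapters into accessible DNA. Motor neurons of the cervical spinal cord were sorted at embryonic day 12.5 by GFP from a ChAT::GFP transgene, a reporter of cholinergic cells that controls and mutants both carry. The 2 control and 2 Hoxa5-deficient libraries were called biological replicates from littermates. The labels give neither the Hoxa5 allele, nor the genotype of the controls, nor the number of embryos per library, so the spread between replicates may in part be technical. Hoxa5 is a homeodomain transcription factor of the Hox5 group, and the series compares open chromatin with and without it. The questions here were whether the ribosomal protein gene ends were open in every library and how far their width, enrichment, rank and summit position differed between libraries.

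Ribosomal proteins assemble with ribosomal RNA into a small subunit, which decodes the mRNA, and a large subunit, which joins amino acids. Their genes are transcribed in nearly all cells, and their messages usually begin with a short run of pyrimidines, the terminal oligopyrimidine tract, through which growth signals set translation. Promoters of this family often lack a TATA box and hold sites for general factors such as ETS proteins, YY1 and SP1. Strand and starts were known from the RefSeq promoter table (build GRCm38.p6, the coordinates of mm10) for 56 of the 76 genes, with 66 listed promoters. Of the 95 regions, 55 lay at the 5′ end of such a gene, 15 only at its far (3′) end, and 25 at genes whose strand was not listed. Of the 55 5′ end regions, 53 lay within 1 kb of a listed start, and the other 2, at Rpl18 and Rpl19, did not.

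These 10 promoter stretches show the sequence features found among the members. Each runs 5′ to 3′ from 100 bases before the RefSeq start to the first 10 transcribed bases. Capitals mark CCGGAA on either strand (the ETS core), AAGATGGC on either strand (YY1), the 10-base palindrome of the ZBTB33 motif and pyrimidine runs of 8 or more bases within 20 bases of the start. The first 3 hold the palindrome: Rps6 (chr4:86857358-86857467, minus strand), whose product is the small subunit protein phosphorylated by S6 kinases, Rps19 (chr7:24884492-24884601, plus strand) and Rpl26 (chr11:68901466-68901575, plus strand).
Rps6: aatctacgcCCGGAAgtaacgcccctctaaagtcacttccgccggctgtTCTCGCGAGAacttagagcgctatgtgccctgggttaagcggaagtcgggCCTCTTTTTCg
Rps19: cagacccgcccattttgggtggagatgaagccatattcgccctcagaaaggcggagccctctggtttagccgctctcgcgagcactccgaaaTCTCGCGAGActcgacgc
Rpl26: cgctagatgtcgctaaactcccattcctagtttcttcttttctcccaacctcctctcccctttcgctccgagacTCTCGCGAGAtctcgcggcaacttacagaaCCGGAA
The next 2 carry long pyrimidine runs across the start, Rpl15 (chr14:18270977-18271086, minus strand) and Rpl14 (chr9:120571417-120571526, plus strand), and Rps15a (chr7:118116138-118116247, minus strand) combines such runs with the YY1 motif.
Rpl15: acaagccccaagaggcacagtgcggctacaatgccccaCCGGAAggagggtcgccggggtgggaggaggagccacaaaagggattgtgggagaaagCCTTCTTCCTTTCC
Rpl14: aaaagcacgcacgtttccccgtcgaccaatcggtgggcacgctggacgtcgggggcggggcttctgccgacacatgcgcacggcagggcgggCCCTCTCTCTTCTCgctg
Rps15a: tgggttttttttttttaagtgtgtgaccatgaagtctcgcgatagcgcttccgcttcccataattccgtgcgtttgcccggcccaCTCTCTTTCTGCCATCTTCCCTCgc
Rpl27 (chr11:101442145-101442254, plus strand), Rps21 (chr2:180257279-180257388, plus strand) and Rps7 (chr12:28635944-28636053, minus strand) each hold 2 ETS cores. Rps4x (chrX:102189382-102189491, minus strand), among the lowest-ranked members below, holds none of these motifs in the stretch shown.
Rpl27: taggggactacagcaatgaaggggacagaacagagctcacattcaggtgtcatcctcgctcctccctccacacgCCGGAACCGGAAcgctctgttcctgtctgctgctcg
Rps21: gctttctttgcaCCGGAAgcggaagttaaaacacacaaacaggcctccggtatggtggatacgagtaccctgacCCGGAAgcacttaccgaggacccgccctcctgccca
Rps7: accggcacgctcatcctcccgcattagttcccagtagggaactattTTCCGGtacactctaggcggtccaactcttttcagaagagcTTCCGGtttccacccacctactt
Rps4x: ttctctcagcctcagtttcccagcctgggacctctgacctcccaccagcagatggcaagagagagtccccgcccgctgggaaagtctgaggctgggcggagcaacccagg

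Over the full 300 bases listed per promoter (250 before and 50 after the start), CCGGAA was present on either strand in 32 of 66 member promoters (48.5%). Its share was 18.7% of all 21263 listed promoters and 27.8% of the 12665 whose start lay in a region open in all 4 libraries. The ZBTB33 palindrome stood in 10.6% of member promoters, from 6 genes (Rpl10a, Rpl12, Rpl26, Rps19, Rps28 and Rps6), against 0.673% of all and 1.07% of open promoters. AAGATGGC was found in 10.6% of member, 3.05% of all and 4.3% of open promoters. The looser form AANATGGC, which includes it, was found in 22.7%, 6.37% and 8.04%. A pyrimidine run of 8 or more bases near the start, on the sense strand only, was found in 43.9%, 15.8% and 15.03%.

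The NRF1 motif (a 10-base palindrome) stood in 3.03% of member, 1.33% of all and 2.13% of open promoters. GGGCGG (SP1) stood in 60.6% of member promoters, 46.2% of all and 68.8% of open ones, and CCAAT (NFY) in 31.8%, 38.2% and 37.8%, so both were less frequent in members than in open promoters. The TATAAA box stood in 9.09% of member promoters, between its share of all (12.6%) and of open promoters (5.98%). These are letter matches and were not tested; several promoters of 1 gene overlap.

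Fold enrichment was described by motif over the members with a 5′ end region, with no test. At Rpl18 and Rpl19 the motifs are those of listed starts inside the gene, while the values are those of the outer 5′ end region. The 30 genes with CCGGAA had median folds of 16.7 and 17.9 in the controls and 17.1 and 17.3 in the mutants. The 24 genes without it had 16.9 and 17.9, and 16.6 and 18.7. The 6 genes with the palindrome had 15.7 and 17.0 in the controls and 15.5 and 16.9 in the mutants, against 16.9 and 17.9, and 17.3 and 18.2, in the other 48. The palindrome genes thus had the lower median fold in every library. So did the 10 genes with AANATGGC, with 16.1 and 16.5 in the controls and 15.6 and 16.8 in the mutants. The other 44 had 17.3, 18.6, 17.8 and 18.7. The regions of the AANATGGC genes were also narrower, with medians of 874.5, 911, 892.5 and 917.5 bp against 981, 1005, 1051.5 and 1007.5 bp. The 28 genes with a pyrimidine run had median folds of 16.8, 17.1, 16.2 and 16.8, and the 26 without one 16.8, 18.5, 17.8 and 18.97. They too were lower in every library, though barely so in control 1 (16.80 against 16.84). For GGGCGG the order of folds varied between libraries. Other measures did not always follow fold. CCGGAA genes had higher rank percentiles (defined below) in every library. Their medians were 95.3, 96.0, 95.2 and 94.5 against 93.8, 93.4, 92.6 and 91.5. Pyrimidine-run genes had wider regions in every library, 1007.5, 1013, 1071 and 1047 bp against 924, 910, 990.5 and 967.5 bp. They ranked higher in every library but control 2. Palindrome genes also had wider regions in every library. AANATGGC genes ranked lower in every library.

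Nearly every ribosomal protein gene was open at an end in every library. Of 76 genes, 74 had a region found in all 4 libraries; the exceptions, Rps2 and Rpl17, had none within 1 kb of an end in any library. By region, 88 of 95 were found in all 4 libraries, which is 92.6% (exact Clopper-Pearson 95% interval 85.4 to 97.0, counting error only). The share over all union regions was 33%, and at other protein-coding gene ends 14103 of 19185 regions, or 73.5%. Of the 5′ end regions 55 of 55 were found in all 4 libraries, including the 53 near a listed start, and those at genes of unlisted strand in 23 of 25. At far ends it was 10 of 15. By the promoter table, 65 of 66 listed member starts lay in a region found in all 4 libraries, against 59.6% of all listed starts.

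**Figure D1:**
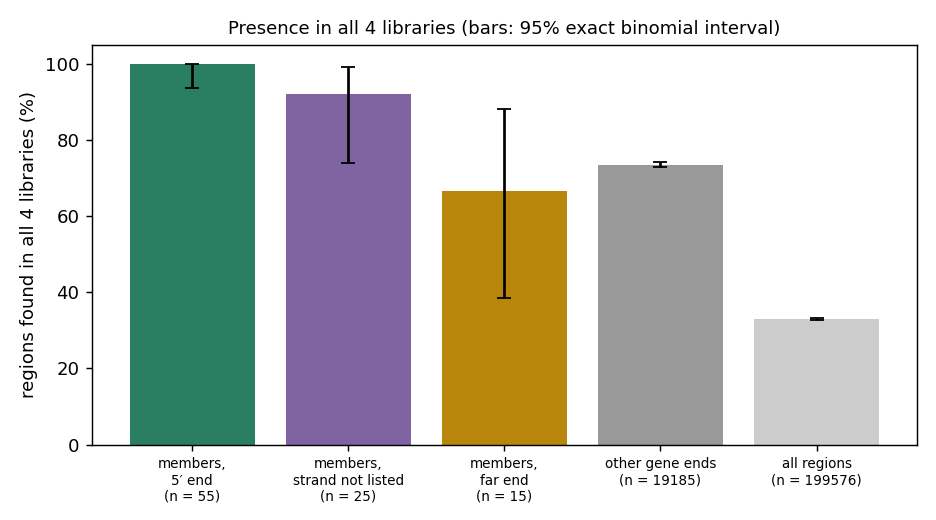
Share of union regions found in all 4 libraries (vertical axis, percent) for member regions at the 5′ gene end, at genes of unlisted strand and at the far end only, for other protein-coding gene ends and for all regions. Bars give the 95% exact binomial interval: 55 of 55 5′ end regions were shared, against 73.5% at other gene ends and 33% of all.

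Both genes without an end region were open inside their RefSeq gene body. The region in Rps2 (chr17:24719558-24720578), a small subunit protein at the mRNA entry channel, was 885 and 994 bp wide in the controls and 1009 and 1021 bp in the mutants, with highest folds of 14.8, 15.4, 16.6 and 16.5. It holds the listed Rps2 start. The region in Rpl17 (chr18:75000150-75001150), near the exit of the peptide tunnel, was 986 and 749 bp wide in the controls and 966 and 722 bp in the mutants. In Rpl22, Rpl18 and Rpl19, too, a listed start lay inside the gene in a separate region found in all 4 libraries. At Rpl22 that inner region (chr4:152325534-152326487) had folds of 21.9, 22.5, 19.4 and 20.7, while its only end region, at the far end, had 14.3, 12, 14.5 and 15.9. At Rpl18 the order was the other way: the outer 5′ end region had folds of 13.9, 12.97, 12.2 and 12.5, and the inner region (chr7:45717661-45718649) 10.4, 9.27, 8.81 and 9.55. At Rpl19 the inner region (chr11:98026435-98027434) had 8.16, 7.28, 8.49 and 7.18, above the outer one given below.

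The 7 regions missing from a library were narrow, 150 to 309 bp, and none lay at a known 5′ end. No member region was found in both controls and neither mutant (3.42% of all regions and 334 of 19185 at other gene ends were). Only 1, at the far end of Rps10, was found in both mutants and neither control, against 10.3% of all regions and 397 of 19185 at other gene ends. It was 230 and 181 bp wide, with folds of 1.96 and 3.80. The far ends of Rps15a (control 2 and mutant 2) and Rpl13 (control 2 and mutant 1) each had a region in 1 library of each genotype. This pattern was seen in 4.41% of all regions and in 463 of 19185 at other gene ends. Those at the far ends of Rpsa and Rps7 were found in control 1 alone, both 150 bp wide. Each of these 5 genes kept another region in all 4 libraries.

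Markers of the sorted cells put these shares in scale. Of 9 motor neuron genes, all had an end region in some library and 7 had one in all 4; Isl2 and Prph did not. Chat and Slc18a3 shared their highest-ranked region, so its values, given next for Chat, belong to both genes. At Chat, the acetylcholine-synthesizing enzyme that defines these cells, the region was 2367 and 2240 bp wide in the controls and 2410 and 2558 bp in the mutants, and its fold was 3.96, 5.39, 5.95 and 6.89, higher in both mutants. The motor neuron factor Lhx4 went the opposite way, with folds of 3.52 and 5.13 in the controls and 1.95 and 2.98 in the mutants. Lhx3 was lower in both mutants only by rank percentile among shared regions, 38.8 and 51.0 against 18.7 and 28.7. Its folds overlapped, 4.22 and 6.53 in the controls against 3.56 and 4.43 in the mutants. Folds at Mnx1 were higher in both mutants, 2.70 and 1.98 against 2.80 and 3.79. At Isl1 (10.6 and 9.94 against 10.3 and 14.4) and at Slc5a7 the folds of the groups overlapped. Of 3 endothelial markers (Pecam1, Cdh5 and Tek), none had a region in any library. Of the other lists, 6 of 7 progenitor, 5 of 7 interneuron, 4 of 5 glial, 5 of 6 muscle and mesenchyme and 2 of 5 blood markers had a region in all 4 libraries. Among progenitor markers, rank percentiles were lower in both mutants at Sox2 (81.2 and 77.9 against 55.4 and 51.7), Hes5 (83.2 and 83.1 against 64.8 and 62.8) and Nkx6-1 (76.3 and 72.6 against 41.2 and 29.9). At Olig2 they were higher, 24.8 and 47.9 against 56.1 and 62.1. The part of such cells in the values at ribosomal genes was not tested. None of these marker genes had a region averaging a rank percentile of 90 or more among shared regions, where most member regions lay.

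Fold enrichment, the authors' ratio of tags at a summit to local background, was similar across libraries. The median over the 88 shared member regions was 16.2 and 17.0 in the controls and 16.2 and 17.0 in the mutants (16.6 ± 0.576 and 16.6 ± 0.532, SD, n = 2 each). Over the 14103 other gene end regions it was 11.8, 12, 12 and 13.3, and over all 65789 shared regions 5.87, 5.94, 6.38 and 7.23. The medians of both wider sets were thus highest in mutant 2, while that of the members was 17.0 in control 2 and in mutant 2. For a single member the highest of the 4 folds exceeded the lowest by a median factor of 1.19, against 1.24 at other gene ends and 1.52 over all shared regions. This gap was absent among regions averaging a rank percentile of 90 or more. There the factor was 1.158 in members, 1.157 at other gene ends and 1.159 over all regions, so the members were not the steadier ones.

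The small subunit genes had the higher folds. Their 21 5′ end regions had medians of 19.2 and 19.6 in the controls and 18.9 and 20.2 in the mutants, and the 32 of the large subunit had 16.1, 16.9, 16.5 and 17.0. Rps26, a protein at the mRNA exit site, reached 22.5 and 26.8 in the controls and 26.1 and 26.2 in the mutants. Rpl11, which with Rpl5 and 5S RNA binds the p53 regulator Mdm2, had folds of 24.0, 25.05, 21.9 and 24.7. The lowest were at the minor second region of Rpl9, with 2.87, 3.28, 3.77 and 2.86, and at the outer end of Rpl19, with 5.10, 4.75, 4.89 and 5.77. Both of these are shared with a neighbour, Lias and Cacnb1. The principal Rpl9 region, also shared with Lias, had 16.2, 17.9, 17.7 and 19.7.

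**Figure D2:**
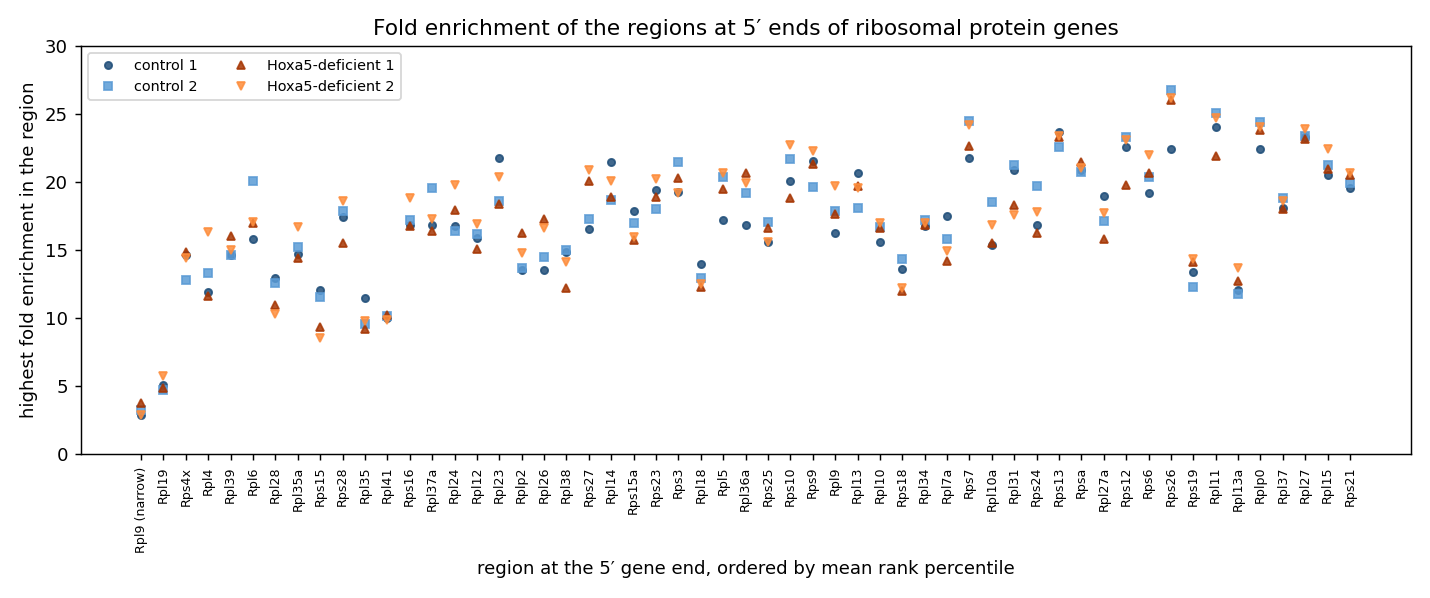
Highest fold enrichment (vertical axis) in each of the 55 regions at 5′ ends of ribosomal protein genes, ordered along the horizontal axis by mean rank percentile; each point is 1 library. The narrow Rpl9 region and Rpl19 lie lowest, Rps26 reaches 26.8, and within a region the highest of the 4 folds exceeds the lowest by at most 1.42 times.

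The stalk proteins Rplp0, Rplp1 and Rplp2, which recruit elongation factors to the ribosome, had ranges of fold that did not overlap each other. At Rplp0 the fold was 22.4 and 24.4 in the controls and 23.8 and 24.0 in the mutants. At Rplp1 (strand not listed) it was 20.4 and 19.3, and 17.3 and 19.2, with the mutants below both controls. At Rplp2 it was 13.5 and 13.7, and 16.3 and 14.8, with the mutants above both controls. The directions at Rplp1 and Rplp2 were thus opposite.

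Rpsa, a small subunit protein also known as a laminin receptor precursor, had folds of 20.9, 20.8, 21.5 and 21.0. Rps27a, made as a fusion with ubiquitin, had 19.9 and 20.2 in the controls and 18.6 and 17.8 in the mutants. The 4 X-linked members had median 5′ end folds of 15.1 and 15.6 in the controls and 16.3 and 16.0 in the mutants. Among them Rpl10, a late-assembling protein of the subunit interface, had 15.6, 16.7, 16.6 and 17.0, and Rps4x 14.6, 12.8, 14.8 and 14.4. Rpl36a had 16.9 and 19.2 in the controls and 20.6 and 19.9 in the mutants.

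Ranks placed the members near the top of each list. Each region was ranked in each library by the −log10 p of its strongest summit among the 65789 regions shared by all 4 libraries, 100 being the strongest. The median member percentile was 94.3 and 94.2 in the controls and 93.4 and 92.2 in the mutants, so both mutants lay below both controls, with a mean difference (mutant minus control) of −1.43 percentile points. The medians of other gene ends were 86.1, 86.1, 85.9 and 85.8. Of the 88 member regions 65 (73.9%) averaged 90 or more, against 37.9% of other gene end regions. The 5′ end regions alone had medians of 95.05, 94.6, 94.7 and 93.3, with the groups overlapping. With 2 against 2 libraries an exact two-sided permutation test cannot go below p = 0.333, so none of these medians could be called different between genotypes.

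**Figure D3:**
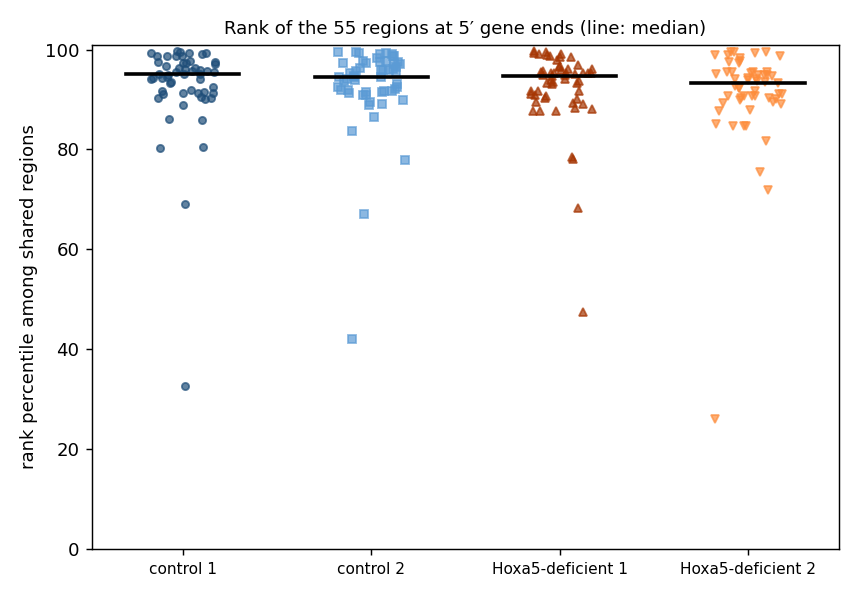
Rank percentile (vertical axis, 100 strongest) of the 55 regions at 5′ gene ends in each library among regions shared by all 4 libraries; each point is a region and the line the median. Medians are 95.05, 94.6, 94.7 and 93.3, and the narrow Rpl9 region is the lowest point in every library.

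By region, 41 of 88 members (46.6%) were ranked higher in both controls than in both mutants, where 32.8% of all shared regions were. In 12 (13.6%) the mutants were higher, against 29.1%. At elongation and other pyrimidine-tract genes 52.9% of 17 regions were higher in both controls and 17.6% in both mutants. For initiation factors these shares were 40.7% and 15.3% of 59 regions. They were 33.3% and 18.4% of 87 at mitochondrial ribosomal genes, and 22.7% and 9.09% of 22 at ribosome biogenesis genes. Among regions averaging 90 or more, 44.6% of 65 members were higher in both controls and 15.4% in both mutants, against 26.6% and 26.9% of 6384 other regions. The difference between these shares was not tested, since the regions share the same 4 libraries. The mutant lists held more intervals, 127458 and 138248 against 115089 and 113505 in the controls, and the part of that in the ranks was not tested. Without mutant 1, 62 of 89 member regions were higher in both controls than in mutant 2. Without control 2 or mutant 2, 21 were higher in the mutants. Comparing 3 libraries loosens such counts for any region. They were made for members only, so they cannot be read as a trait of the members.

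Rps21 held the highest mean rank of any 5′ end region, with percentiles of 99.7, 99.6, 99.7 and 99.6, and also the smallest spread. The strongest summit of Rps21 rested on 660 and 599 sequence tags (recovered from the authors' fold and p) in the controls and 806 and 1098 in the mutants. Rpl15, Rpl27, Rpl37 and Rplp0 followed, all between 98.7 and 99.6 in every library. Rps29, of unlisted strand and picked out after its values were seen, was higher still, at 99.8, 99.8, 99.7 and 99.7. The regions of Rps21, Rpl15 and Rpl37 lie also at the end of another protein-coding gene (Cables2, Nkiras1 and Card6). In all, this was so for 16 of the 55 5′ end regions and for 26 of the 95 member regions. Rps19 and Rpl13a ranked high with moderate folds: Rps19 had percentiles of 98.6, 97.5, 99.2 and 98.9 at folds of 13.4, 12.3, 14.1 and 14.4. Its summits held 638, 507, 811 and 1071 tags.

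At the low end stood Rps4x with 80.5, 78.0, 78.1 and 75.4, Rpl4 with 80.4, 83.8, 78.6 and 81.7, and Rpl39 with 85.8, 86.5, 88.1 and 85.2. The strongest summit of Rps4x held 106 and 80 tags in the controls and 97 and 132 in the mutants. Outside the narrow Rpl9 region, the largest spread between libraries was at Rps15, a protein near the decoding site: 91.9 and 92.0 in the controls and 87.8 and 84.6 in the mutants, 7.32 points in all. Its folds, 12.1 and 11.6 against 9.37 and 8.53, did not overlap either. Rpl28 was similar, with 90.3 and 89.5 in the controls, 87.8 and 84.7 in the mutants, and folds of 12.98, 12.6, 10.9 and 10.3. Rpl6 showed no such split, with 86.1, 89.9, 87.7 and 84.7.

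The rank of a member spanned a median of 3.05 points over the 4 libraries, against 4.57 at other gene ends and 18.1 over all shared regions. Strong regions have little room to move on this scale. Among regions averaging 90 or more, the spread was 2.45 points in members and 2.06 in the others, so the median spread of members was not the smaller one.

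Width was the bases that a library's intervals covered within a region. Median member widths were 943 and 948 bp in the controls (946 ± 3.89, SD, n = 2) and 1013 and 968 bp in the mutants (991 ± 31.5), 45 bp more in the mutants. The 55 5′ end regions had medians of 963 and 998 bp in the controls and 1029 and 978 bp in the mutants, and these groups overlapped. Other gene ends had 956 and 952 against 1011 and 1007 bp, and all shared regions 533 and 533 against 618 and 644 bp. In these uncentred widths the members moved the same way as all regions, which differed by 98 bp; with centring the sign turns, as given next.

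No width difference passed the test. With limma on log2 widths over all 65789 shared regions, each library centred on its median, 0 of 88 member regions and 0% of all regions had a Benjamini-Hochberg adjusted p under 0.05. With centring the lowest limma adjusted p of any member was 0.116, at Rpl7. Uncentred, Rpl7 was 2249 and 2242 bp wide in the controls and 2254 and 2299 bp in the mutants (limma adjusted p 0.683). Without centring the lowest limma adjusted p of any member was 0.115, at Rpl11. An unadjusted p under 0.05 was found at 19 of 88 members (21.6%) and at 23.7% of all regions, and without centring at 8 of 88 and 19.2%. The sign of the member median depends on the scaling: mutant minus control was −0.20 on the log2 scale with centring and 0.05 without. Centring moves every region by 0.24, and under both scalings the member median lay 0.06 below that of all regions (−0.14 and 0.11).

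By non-overlap, 41 of 88 members (46.6%) were wider in both mutants than in both controls, near the 39.8% of all shared regions. Only 3 (3.41%) were wider in both controls, against 12.8% of all. With any 1 library left out, so that 3 are compared, this number was 7 to 18, counted for members only. At Rpl11 the widths were 849 and 911 bp in the controls and 1160 and 1199 bp in the mutants. The log2 difference was 0.42 ± 0.07 (SE) without centring (limma adjusted p 0.115) and 0.18 ± 0.08 with it (limma adjusted p 0.262). Rpl39, Rpl15, Rpl14 and Rpl26 came next, at 0.26 to 0.28 without centring and 0.02 to 0.03 with it. Rpl14, for instance, was 765 and 798 bp wide in the controls and 938 and 939 bp in the mutants. Lowest among 5′ end regions, Rpl10 was 916 and 957 bp wide in the controls and 860 and 882 bp in the mutants, −0.10 ± 0.07 without centring and −0.35 ± 0.09 with it (limma adjusted p 0.143). Rps18 and Rps16, the next among principal 5′ end regions, had −0.09 and −0.04 without centring. Lower still without centring were a far end region of Rpl23 (−0.27), a region at Rpl3 (−0.13) and a far end region of Rpl26 (−0.11).

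**Figure D4:**
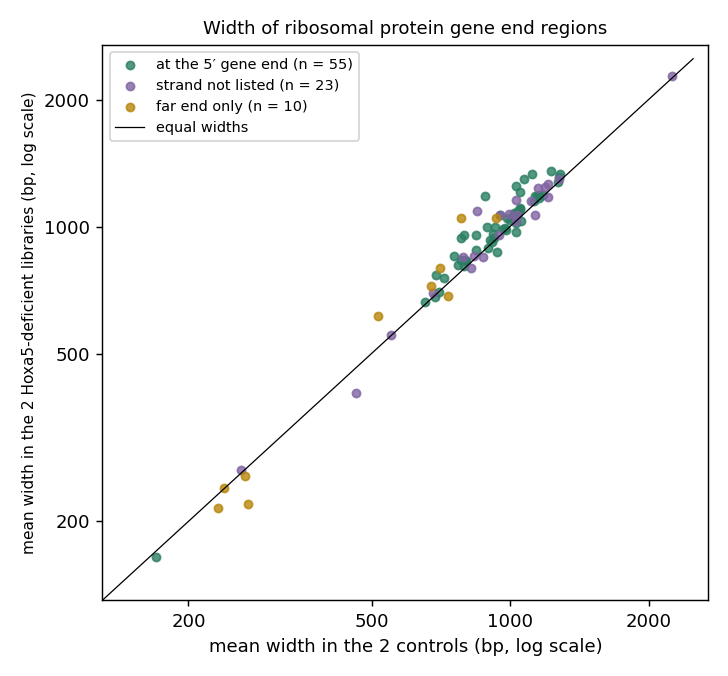
Mean width of the 88 shared member regions in the 2 controls (horizontal axis, bp, log scale) and the 2 Hoxa5-deficient libraries (vertical axis, bp, log scale), coloured by place at the gene; the line marks equal widths. Points follow the line from the narrow Rpl9 region (167.5 bp on average) to the Rpl7 region (2249 bp in control 1), and no region passed the width test.

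The widest 5′ end region was at Rpl10a, with 1253 and 1315 bp in the controls and 1332 and 1326 bp in the mutants. Rps6 varied least among the 5 widest, with 1264, 1282, 1288 and 1264 bp. Rpl34 had 1125 and 1103 bp in the controls against 1310 and 1357 bp in the mutants, while Rpl19 and Rpl7a, both also at the end of another gene, averaged 1292 bp. Apart from the narrow Rpl9 region (178, 162, 171 and 159 bp), the smallest was at Rpl41, which encodes a very short peptide: 645, 662, 684 and 638 bp. Rps15, Rpl18 and Rpl28 averaged 683, 700 and 730 bp. The stalk gene Rplp0 had 797, 810, 812 and 843 bp, and Rpsa 837 and 852 bp in the controls against 931 and 976 bp in the mutants. The 2242 to 2299 bp region at Rpl7 lies also at the end of Rdh10.

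Summits sat close to the 5′ gene end in all libraries. From the outer gene end, the median position of the strongest summit in the 55 5′ end regions was 31 and 30 bp upstream in the controls and 20 and 26 bp upstream in the mutants. In 45 and 45, and 43 and 42 regions it lay within 100 bp. The strongest summits rested on medians of 358 and 293 tags in the controls and 358 and 467 in the mutants, a counting error of 4.63% to 5.84%. Summit positions of a member spanned a median of 16.5 bp over the 4 libraries, and 73.9% stayed within 25 bp, against 50.8% at other gene ends and 31.9% of all shared regions. The share was 79.3% at mitochondrial ribosomal genes, 72.7% at biogenesis genes, 58.8% at elongation and other pyrimidine-tract genes and 47.5% at initiation factors. For regions averaging a rank percentile of 90 or more, the median span was 16 bp in members and 19 bp at other gene ends. At Rps13 the summits lay at 3, −3, 3 and 8 bp from the outer gene end, negative being upstream.

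**Figure D5:**
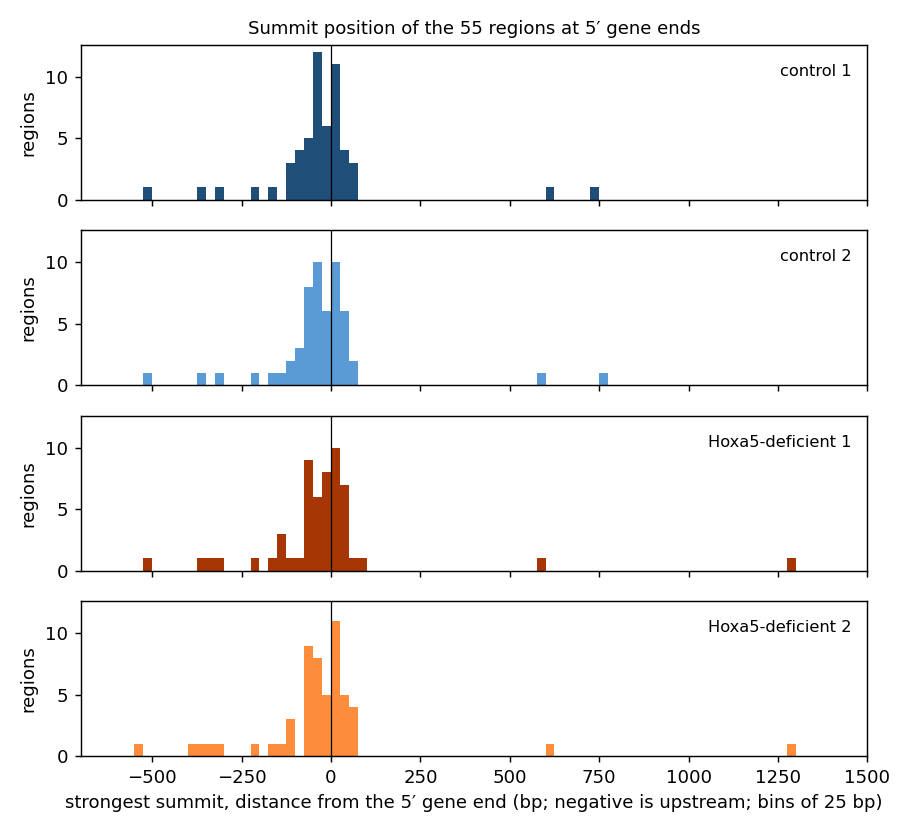
Position of the strongest summit in the 55 regions at 5′ gene ends, in bp from the outer gene end (horizontal axis, negative upstream, bins of 25 bp), as numbers of regions (vertical axis) for each library. Most lie within 100 bp of that end in all 4 libraries; the summit beyond 1250 bp in both mutants is that of Rpl38.

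At 2 of 88 members (2.27%), Rpl38 and Rplp2, the strongest summits of both mutants lay 200 bp or more to 1 side of those of both controls; this was so for 2.47% of all shared regions, and the criterion was chosen after the values were seen. Rpl38 is a large subunit protein known from the tail-short mouse, in which translation of a subset of Hox messages is altered. Its RefSeq start lies 762 bp inside the outer gene end. A summit at that start (32 and 10 bp upstream in the controls, 1 and 0 bp downstream in the mutants) had folds of 14.9 and 15.04 in the controls and 11.9 and 13.4 in the mutants. A second summit, 539 and 545 bp downstream in the controls and 527 and 535 bp in the mutants, had 10.1 and 11.9, and 12.2 and 14.1. Both summits were thus called in every library, and which one was stronger differed between the genotypes. In the mutants the 2 folds lay close, 11.9 and 12.2 in mutant 1 and 13.4 and 14.1 in mutant 2. Beside a counting error of 4.63% to 5.84% at the median 5′ end summit, their order in the mutants is uncertain. The width of the Rpl38 region, 1140 and 1172 bp in the controls and 1199 and 1181 bp in the mutants, gave a limma adjusted p of 0.193.

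Rplp2 likewise had a pair of summits in every library. The one near the start (37, 48, 35 and 26 bp upstream) had folds of 13.5 and 13.7 in the controls and 13.2 and 14.4 in the mutants. The one about 350 bp upstream had 12.7 and 13.2 in the controls and 16.3 and 14.8 in the mutants. Its region is shared with the end of Pidd1, and the fold of the upstream summit was higher in both mutants than in both controls. At Rps19 the order of the summits 99 and 429 bp upstream turned in mutant 2 alone, where the upstream one had a fold of 14.4 and the other 13.7. Folds of single summits carry no test.

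The bases covered were nearly the same in any pair of libraries. The covered bases shared by a pair, as a fraction of those covered in either, were 0.888 between controls, 0.923 between mutants and 0.894 ± 0.0061 (SD, n = 4 pairs) across genotypes. The mean within genotype exceeded that across by 0.0114 at members, 0.0279 at other gene ends and 0.119 over all regions. The 4 cross-genotype pairs use the same libraries and are not independent.

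Most other translation genes were open at an end too. Of 78 mitochondrial ribosomal protein genes, 76 had an end region in all 4 libraries, and 52 of 56 initiation factor genes did. So did 14 of 15 elongation and other pyrimidine-tract genes (not Ybx1), and 19 of 20 ribosome biogenesis genes (not Ubtf). Among the other protein-coding genes the share was 63.8%. The best region of a gene averaged a percentile of 90 or more in 86.5% of the cytosolic ribosomal genes with a shared region, 85.7% of the elongation and pyrimidine-tract genes, 73.7% of the biogenesis genes, 67.3% of initiation factors, 57.9% of the mitochondrial ones and 45.9% of other genes. Eef2, the elongation factor of translocation, ranked with the strongest members, at 99.1, 99.4, 99.4 and 99.6. Vim, an intermediate filament gene on the same list, had folds of 7.004 and 7.62 in the controls and 11.7 and 13.4 in the mutants, without overlap.

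Genes just outside the name rule varied. Rps3a1, the mouse gene of a small subunit protein, had folds of 20.6, 20.7, 19.8 and 19.1 over 942, 923, 949 and 989 bp. Fau, which encodes a ribosomal protein fused to a ubiquitin-like protein, had a region in all 4 libraries with folds of 11.3, 10.1, 9.23 and 9.69. Of 15 left-out Rpl and Rps symbols, 8 had a region in all 4 libraries, among them Rpl22l1 (22.4, 23.6, 22.5 and 24.7), Rpl36al (18.05, 18.7, 18.1 and 19.3) and Rps27l (20.4, 20.7, 19.5 and 21.4). Rpl10l, Rpl31-ps12, Rpl39l and Rps27rt had none in any library, and Rpl32l, Rpl37rt and Rps23rg1 had regions in some libraries only. Rpl10l and Rpl39l are copies used in the testis, and their parent genes Rpl10 and Rpl39 were open in all 4 libraries.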

How the data were processed

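GFP-sorted cells were transposed with Tn5 and sequenced as Nextera libraries, per the labels' protocols. Tools named in the submitters' processing notes, without parameters, are MACS2 2.2.4, SAMtools 1.9, Bowtie2 2.3.4.3 and FastQC 0.11.9, on mm10. Whether tag positions were shifted for Tn5 is not stated in the labels. The authors deposited a separate peak list for each library. Its deposited columns give the fold enrichment ratio and −log10 of the p-value and q-value at each summit, and a deposited score capped at 1000, used for nothing. Lists begin at −log10 p of 2.00, a permissive threshold.

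Tags at a summit were recovered from fold and p as whole numbers (tolerance 0.001 in −log10 p), for 99.996% or more of the summits tried in each library. The lowest local background, which scales with depth, was 4.39 to 5.43 tags in the control libraries and 5.14 to 6.06 in the mutant ones, and the lists covered 50.9 to 52.3 Mb against 62.7 to 68.1 Mb. RefSeq gene ends carry no strand, so strand and starts came from the promoter table. Widths were tested with limma 3.58.1 in R 4.3.3, with a trend, on log2 covered bases; the fit was tested on simulated data. Fold, p and rank were used to describe and order regions only.

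Members, gene lists and tests were chosen with earlier results of these data known. Named genes were those missing a region, the 5 at each extreme of width, rank, rank spread and width difference among 5′ end regions, a set of well-known members and near misses of the name rule; a few more were chosen after their values were seen (Rps29, Rps26, Rps13, Rps19, Rpl13a, Rpl38, Rpl36a, Rpl7, Eef2 and Vim). A few named by this rule are left out of the text.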

Additional observations from a re-analysis of the deposited data

How the results depend on the processing

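No setting gave a member region past the width test. Presence in all 4 libraries was 97.6% with a 500 bp window and 100% over the starts of the promoter table, an alternative chosen after seeing the data. The median width difference of member regions (log2), mutant minus control, was −0.0754 when at least 0.5 of a region had to be covered, −0.0649 with quantile normalization and −0.0362 fitted on gene ends alone, and it was 0.0454, the opposite sign, without centring. The mean of the library median percentiles, 93.5, was 90.9 at −log10 q of 5 or more, 90.9 with 0.5 of a region covered, 92.1 ranking by fold and 87.1 with the median over summits. The median percentile difference between library pairs, 1.44, became 2.01, 1.97, 2.196 and 3.15 under the same settings. The 41 regions ranked higher in both controls were 25 with the median over summits and 27 of 57 over listed starts, where 7 were higher in both mutants. Regions wider in both controls numbered 6 with a 2.5 kb window, and regions wider in both mutants 26 of 63 without those at another gene's end. Under these settings non-overlap was counted for member regions only, with no share over all regions beside it.

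Leaving out 1 library loosens the non-overlap counts by construction, since 3 libraries are compared. The counts in this paragraph were made for member regions only, so no share over all regions stands beside them. Regions wider in the controls numbered 7 to 18 (18 without control 1, 9 without control 2, 13 without mutant 1, 7 without mutant 2). Regions ranked higher in the mutants numbered 16 to 21 (21 without control 2 and 21 without mutant 2). Those ranked higher in the controls numbered 42 to 62 (62 without mutant 1). With the replicate number as a block the median width difference stayed −0.20, with 0 calls and 8 members at an unadjusted p under 0.05. The numbers were not taken to pair the samples: replicate differences of the 2 genotypes correlated at −0.01 over all shared regions and at 0.15 over the 88 members, and the labels tie no number to a litter or day. Of 945 recomputed single-region widths, 944 moved by less than the spread between libraries. For most of them the settings allowed little else. The window, coverage and other-gene-end settings leave a region's widths unchanged, and leaving out 1 library can hardly move a mean by that spread. The count is therefore no measure of robustness. With 2 libraries a group, a difference at a single region has to be large to pass, and the depth of the libraries limits folds to a counting error of 4.63% to 5.84% at the median 5′ end summit.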
